A study of Mus musculus with 6 samples.

Results

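The report covers 9 mouse genes of a pair of receptor families, the Siglecs (Siglece, Siglecf, Cd33 and Siglec1) and the CD300 receptors (Cd300a, Cd300lf, Cd300c2, Cd300lb and Cd300ld). They are a list of symbols looked up among the 55487 genes of the deposited count table, and all 9 were found and passed the filter on low counts. RNA was sequenced from neutrophils sorted from perfused, digested mouse lung by the surface protein Ly6G. Mutant libraries (n = 3) came from mice with the transgene Tg(S100A8-cre,-EGFP)1Ilw on a B6.Cg background, which expresses Cre and EGFP from the S100A8 (Mrp8) promoter, and with the loxP-flanked allele B6;129-Tgfbr2tm1Karl/J on both copies of Tgfbr2, the gene of the type II TGF-beta receptor. Wt libraries (n = 3) came from Cre-negative littermates homozygous for that floxed allele, so both groups carry the floxed allele and the mutants differ in the transgene as well as in the targeted gene. No age of the mice is given in the labels. The comparison of mutant with wt shows how far the receptor genes differ in lung neutrophils when Tgfbr2 is targeted.

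Siglecs are membrane lectins that bind sialic acid, the sugar at the tips of many glycans, and most of them carry immunoreceptor tyrosine-based inhibition motifs (ITIMs) in the cytoplasmic tail, which recruit the phosphatases SHP-1 and SHP-2 when phosphorylated. CD300 receptors are immunoglobulin-like proteins of myeloid cells that bind membrane lipids, such as phosphatidylserine on dying cells. Some members have long tails with ITIMs and restrain the cell, while others have short tails, pair with the adaptors DAP12 or the Fc receptor gamma chain through a charged residue in the membrane, and activate it. Siglec-E is the inhibitory Siglec best known from mouse neutrophils, Siglec-F is known from eosinophils and alveolar macrophages and from some tissue neutrophils, and Siglec-1 (sialoadhesin, CD169) from macrophages.

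The division into receptors with and without an ITIM can be read in the coding sequences. In the principal transcript of each gene in GENCODE M21, the codons after the most hydrophobic window of 19 codons, which stands for the membrane span, were searched for the ITIM: isoleucine, leucine, valine or serine, any residue, tyrosine, any pair of residues, then leucine, isoleucine or valine. The motif was present in 4 of the 9 genes, as 7 stretches of 18 coding bases. They are given below in GRCm38 because they separate the members with an inhibition motif from those without. Each is printed 5′ to 3′ on the coding strand, with the tyrosine codon in capitals.
Siglece, chr7:43651585-43651602, minus strand: atacatTATgcgaccctc
Siglecf, chr7:43358670-43358687, plus strand: ctccacTATgcctccctc
Siglecf, chr7:43358739-43358756, plus strand: tctgtaTACacagagatc
Cd300a, chr11:114899846-114899863, plus strand: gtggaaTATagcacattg
Cd300a, chr11:114901147-114901164, plus strand: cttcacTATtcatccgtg
Cd300lf, chr11:115117648-115117665, minus strand: ctctgtTATgcagacctg
Cd300lf, chr11:115117112-115117129, minus strand: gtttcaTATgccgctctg

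The tails of these 4 genes had 95 codons in Siglece, 104 in Siglecf, 113 in Cd300a and 125 in Cd300lf. The tails of the other 5 had 19 codons in Cd300c2, 24 in Cd300ld, 33 in Cd300lb, 37 in Siglec1 and 66 in Cd33, with no match to the ITIM. In place of it, the hydrophobic stretch held a lysine codon in Cd300lb, Cd300c2 and Cd33 and a glutamate codon in Cd300ld, and no charged codon in Siglec1; Siglecf held a lysine codon near the end of its window as well as its ITIMs. In a window that ignores the membrane span, the last 150 codons, the same pattern stood in 23.4% of 19700 mouse coding sequences and in 6 of the 9 members, so a match is a description of the letters and not evidence of a working motif.

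The members lie in 3 places of GRCm38. On chromosome 7, Siglecf (ENSMUSG00000039013.16) spans 43351341 to 43359531 on the plus strand, and Cd33 (ENSMUSG00000004609.11, 43524216 to 43544428) and Siglece (ENSMUSG00000030474.9, 43651070 to 43660161) lie on the minus strand. The CD300 members lie on chromosome 11, with Cd300a (ENSMUSG00000034652.12) at 114890041 to 114904654 on the plus strand and Cd300lb (ENSMUSG00000063193.8, 114922781 to 114934386), Cd300ld (ENSMUSG00000034641.2, 114982274 to 114989922), Cd300c2 (ENSMUSG00000044811.13, 114996721 to 115001880) and Cd300lf (ENSMUSG00000047798.15, 115116214 to 115133992) on the minus strand. Siglec1 (ENSMUSG00000027322.11) lies alone on the minus strand of chromosome 2, from 131069220 to 131086765.

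Levels are given in CPM, counts scaled to the library total after TMM correction for library composition. Tgfbr2, the targeted gene, stood at 176, 205 and 181 CPM in mutants and at 186, 185 and 201 CPM in wt, with overlapping groups, a log2 fold change of -0.026 and an adjusted p of 0.996 by edgeR. These counts pool all exons of the gene and so do not check the loss of a floxed exon. The 6 libraries held between 30403494 and 35906780 counts. A gene with 3 counts in a library stood at 0.0829 to 0.102 CPM, which covers counting error only. The sorted cells carried neutrophil transcripts: Csf3r was at 7689 to 8111 CPM in mutants, against 8042 to 9233 CPM in wt, and S100a8, the mouse counterpart of the gene whose promoter drives the Cre, at 966 to 1507 CPM in mutants, against 1687 to 1751 CPM in wt. DESeq2 called 2 of the 10 neutrophil markers lower in mutants, beside 0.469% of all genes. By edgeR 0 were called and 2 were lower at an unadjusted p under 0.05, beside 3.22% of all tested genes. Those 2 in edgeR were S100a8 and the chemokine receptor gene Cxcr2, named after its values were seen, at 1946 to 2136 CPM in mutants, against 2475 to 2623 CPM in wt. Ly6g, the gene of the protein used for the sort, was at 14.4 to 33.6 CPM in mutants, against 19.3 to 35.2 CPM in wt. Transcripts of other lung cells were present in all libraries, with 7 epithelial markers summing to 516 to 955 CPM in mutants, against 252 to 531 CPM in wt, and 5 fibroblast markers to 365 to 594 CPM in mutants, against 264 to 312 CPM in wt. Of these, 6 epithelial and 5 fibroblast markers had a log2 fold change above 0, where 49.3% of all tested genes lay below 0. By edgeR 0 of these markers were called and 9 were higher at an unadjusted p under 0.05, beside 3.51% of all tested genes. DESeq2 called 3 higher, beside 0.514% of all genes. The 6 endothelial markers lay the other way, summing to 806 to 1005 CPM in mutants, against 913 to 1104 CPM in wt, with all 6 log2 fold changes below 0 and 0 called by edgeR or DESeq2 or at an unadjusted p under 0.05. The part of these cells in the members' values was not tested. The design text of the series names 3 mice of each genotype. The labels do not tie each library to 1 mouse, so the p-values speak for the spread among the 6 libraries.

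Of the 15774 genes tested by edgeR's quasi-likelihood test, 0.00634% were higher and 0.0% lower in mutants at an adjusted p under 0.05, and 0 of the 9 members were among them. At an unadjusted p under 0.05, 3 members were lower in mutants (Cd300lf, Cd33 and Siglece) and 0 were higher, where 3.22% of all tested genes were lower and 3.51% higher. DESeq2 and limma-voom also called 0 members, while DESeq2 called 0.514% of all genes higher and 0.469% lower. Among genes with at least 10 CPM on average, edgeR called 0.203% higher and 0.0724% lower, and again 0 members. The libraries of the groups did not overlap for the same 3 genes in the lower direction and for Siglec1 in the higher direction, where 6.21% of all tested genes were lower and 6.82% higher without overlap. The members' median log2 fold change was -0.058, beside 0.0054 over all tested genes. With 9 members chosen when results of these data were known, these counts describe the list and carry no test of it.

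**Figure D1:**
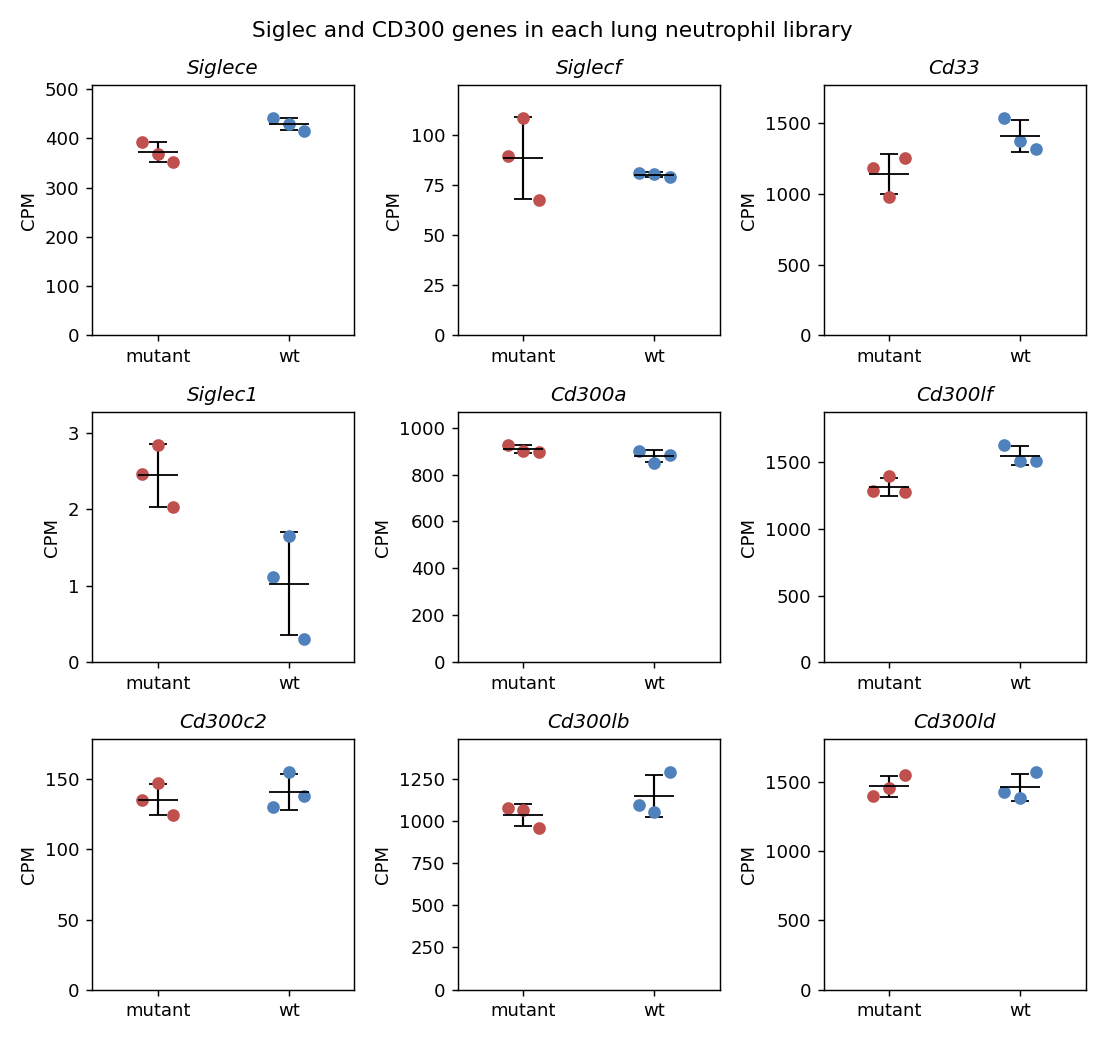
Level (CPM, TMM-scaled, vertical axes from 0) of the 9 genes in each of the 3 mutant and 3 wt libraries, with points for libraries, the long bar for the mean and the capped line for the SD. The mutant points lie below all wt points for Siglece, Cd33 and Cd300lf and above them for Siglec1, and the groups overlap for the other 5 genes.

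Siglece, the inhibitory Siglec of neutrophils, stood at 393, 369 and 353 CPM in mutants and at 442, 429 and 416 CPM in wt. All 3 mutant libraries lay below all 3 wt libraries, with means of 372 ± 20.4 CPM in mutants, against 429 ± 13.2 CPM in wt (± SD over 3 libraries per group). The log2 fold change was -0.21 ± 0.091 (SE), a difference of -13.4%, and its 95% interval ran from -0.41 to -0.0046. The adjusted p was 0.728 in edgeR. The difference did not pass the test across all genes.

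Cd33, whose mouse protein lacks a classical ITIM and is known to pair with DAP12, stood at 1183, 981 and 1253 CPM in mutants and at 1540.2, 1375 and 1316 CPM in wt. Again no mutant library reached the lowest wt library, and mutant replicate 2 was the lowest of the 6. The means were 1139 ± 142 CPM in mutants, against 1411 ± 116 CPM in wt (± SD over 3 libraries per group), a difference of -19.3%. Its log2 fold change was -0.31 ± 0.11 (SE; 95% interval -0.55 to -0.066). The adjusted p was 0.593 in edgeR and ran from 0.280 to 0.886 over the alternative settings. Without mutant replicate 2 the log2 fold change was -0.22.

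Siglecf stood at 89.3, 109 and 67.3 CPM in mutants and at 81.2, 80.3 and 78.9 CPM in wt. The mutant libraries lay on both sides of the wt libraries, which were close to each other. The coefficient of variation was 23.3% among mutants and 1.45% among wt. Over genes that averaged 10 CPM or more its medians were 12.7% in mutants and 11.9% in wt. The means were 88.4 ± 20.6 CPM in mutants, against 80.1 ± 1.16 CPM in wt (± SD over 3 libraries per group), with a log2 fold change of 0.14 ± 0.16 (SE; 95% interval -0.22 to 0.51; adjusted p 0.956, edgeR). The sign of the fold change rested on mutant replicate 2, without which it was -0.036.

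Siglec1 was low, with 89, 84 and 66 counts in mutants and 34, 50 and 10 counts in wt. These are 2.46, 2.85 and 2.03 CPM in mutants and 1.12, 1.65 and 0.313 CPM in wt, and the groups did not overlap. Its log2 fold change was 1.25 ± 0.63 (SE; 95% interval -0.15 to 2.65; adjusted p 0.797, edgeR), and it was 0.82 without wt replicate 3, the lowest library, and 1.77 without wt replicate 2, the highest wt library. In bulk RNA, fewer cells of a type and less RNA per cell cannot be told apart.

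Both Siglec-F and Siglec-1 are known from other cells of the lung, and the markers of those cells were measured in the same libraries. The 11 alveolar macrophage markers summed to 178 to 258 CPM in mutants, against 133 to 199 CPM in wt. All 11 had a log2 fold change above 0 (median 0.64), where 49.3% of all tested genes lay below 0. By edgeR 0 passed the adjusted threshold and 4 were higher at an unadjusted p under 0.05, beside 3.51% of all tested genes. DESeq2 and limma-voom called 0. Among the first genes of the list, Marco averaged 9.06 CPM in mutants, against 5.33 CPM in wt, and Mrc1 averaged 24.2 CPM in mutants, against 15.5 CPM in wt. Fabp4 was level, at 3.58 CPM in mutants, against 3.57 CPM in wt, with a log2 fold change of 0.0034. Car4, the largest part of the sum, averaged 108 CPM in mutants, against 94.8 CPM in wt. The 10 markers of monocytes and other macrophages summed to 808 to 889.8 CPM in mutants, against 883 to 911 CPM in wt. Most of that sum was Csf1r, at 546 to 614 CPM in mutants, against 624 to 681 CPM in wt. The part of all these cells in the values of Siglecf and Siglec1 was not tested. The eosinophil genes Epx and Prg3 had 0 counts in all 6 libraries, and Prg2 had 0 counts in all except mutant replicate 3. The 6 eosinophil markers summed to 4.34 to 8.87 CPM in mutants, against 3.996 to 9.28 CPM in wt, mostly from the chemokine receptor gene Ccr3, which was named after its values were seen.

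**Figure D2:**
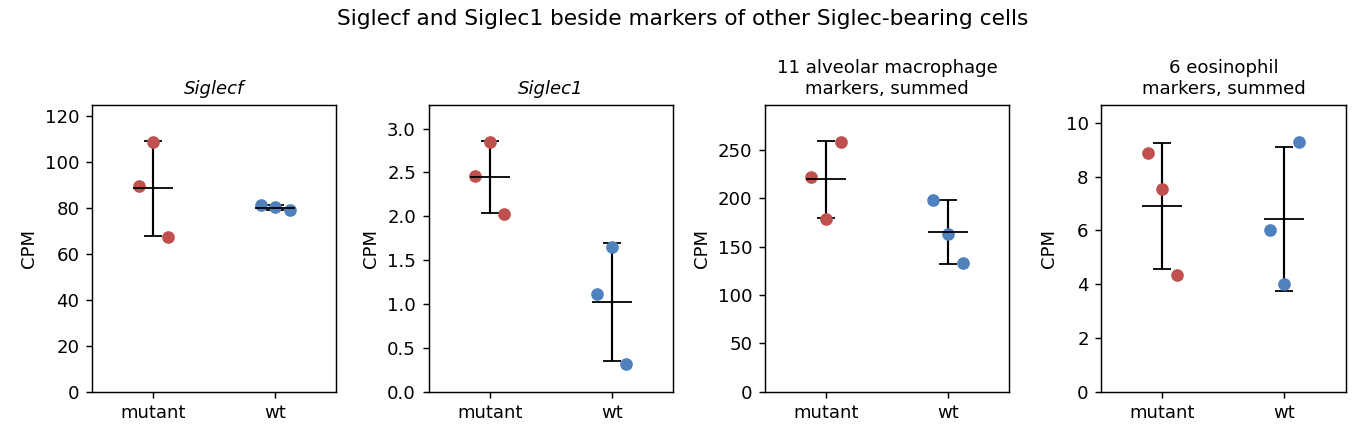
CPM (vertical axes from 0) of Siglecf, Siglec1, the sum of 11 alveolar macrophage markers and the sum of 6 eosinophil markers in each mutant and wt library, with points for libraries, the long bar for the mean and the capped line for the SD. The macrophage sum runs from 178 to 258 CPM in mutants and from 133 to 199 CPM in wt, and mutant replicate 2, highest for Siglecf at 109 CPM, is the lowest mutant in that sum. The largest part of the macrophage sum is Car4, at 83.8 to 148 CPM over the 6 libraries.

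Of the inhibitory CD300 genes, Cd300lf (CLM-1, a receptor for phosphatidylserine and ceramide and the entry receptor of murine norovirus) stood at 1281, 1395 and 1277 CPM in mutants and at 1631, 1509.8 and 1508 CPM in wt. Every mutant library lay below every wt library. The means were 1318 ± 67.2 CPM in mutants, against 1549 ± 70.4 CPM in wt (± SD over 3 libraries per group), a difference of -14.9%. The log2 fold change was -0.23 ± 0.082 (SE; 95% interval -0.42 to -0.051; adjusted p 0.593, edgeR).

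Cd300a (CLM-8, MAIR-I), which binds phosphatidylserine and phosphatidylethanolamine and also carries ITIMs, was nearly level between the groups. It stood at 927, 899 and 897 CPM in mutants and at 898, 849 and 885 CPM in wt, with overlapping groups. Its log2 fold change was 0.048 ± 0.080 (SE; 95% interval -0.13 to 0.23; adjusted p 0.980, edgeR). Whether Cd300lf and Cd300a differ in their response was not tested.

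The activating CD300 genes overlapped between the groups. Cd300ld (CLM-5), which pairs with the Fc receptor gamma chain, stood at 1397, 1453 and 1551 CPM in mutants and at 1426, 1381 and 1572 CPM in wt, with a log2 fold change of 0.0070 ± 0.087 (SE; 95% interval -0.19 to 0.20; adjusted p 0.998, edgeR). The highest and lowest of the 6 libraries were both wt. Cd300lb (CLM-7), which pairs with DAP12, stood at 1075, 1065 and 959 CPM in mutants and at 1094, 1053 and 1289 CPM in wt, with a log2 fold change of -0.15 ± 0.10 (SE; 95% interval -0.37 to 0.075; adjusted p 0.884, edgeR). Here wt replicate 3 was the highest library and mutant replicate 3 the lowest. Cd300c2 (CLM-4, MAIR-II), another partner of DAP12, stood at 135, 147 and 124 CPM in mutants and at 129.9, 155 and 138 CPM in wt, with a log2 fold change of -0.058 ± 0.12 (SE; 95% interval -0.32 to 0.20; adjusted p 0.989, edgeR).

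**Figure D3:**
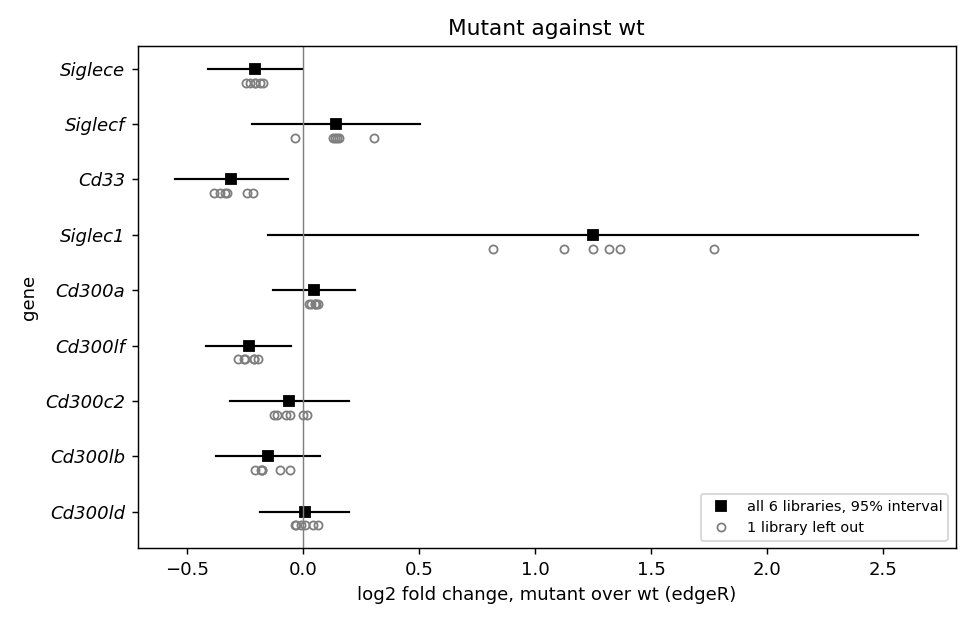
Log2 fold change of mutant over wt (horizontal axis) for the 9 genes by edgeR's quasi-likelihood test, with squares and lines for the estimate and 95% interval from 6 libraries and open circles for the 6 fits that each leave out 1 library. The intervals of Siglece, Cd33 and Cd300lf lie below 0, with no member passing after adjustment over 15774 genes, and the circles of Siglecf, Cd300c2 and Cd300ld fall on both sides of 0.

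To compare genes with each other, counts were divided by the deposited exon length and scaled to a common total per library (TPM). In this unit the order from high to low was Cd300ld, Cd300lb, Cd300lf, Siglece, Cd300a, Cd33, Cd300c2, Siglecf and Siglec1. Cd300ld averaged 1889 ± 151 TPM in mutants, against 1875 ± 143 TPM in wt (± SD over 3 libraries per group), above 99.5% of the tested genes. Cd300lb averaged 1205 ± 63.2 TPM in mutants, against 1335 ± 157 TPM in wt, and Cd300lf 870.3 ± 7.72 TPM in mutants, against 1022 ± 54.1 TPM in wt. The middle of the order was closer together. Siglece averaged 684 ± 47.4 TPM in mutants, against 788 ± 26.5 TPM in wt, Cd300a 652 ± 33.6 TPM in mutants, against 629 ± 25.4 TPM in wt, and Cd33 501 ± 82.5 TPM in mutants, against 617 ± 53.8 TPM in wt. The ranges of Siglece and Cd300a overlapped, though Siglece was higher in each of the 6 libraries, and Cd300a exceeded Cd33 in 5 of 6 with overlapping ranges. All other neighbours in the order were separated without overlap.

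Cd300c2 averaged 361 ± 16.3 TPM in mutants, against 376 ± 29.9 TPM in wt (± SD over 3 libraries per group), and Siglecf 107 ± 20.8 TPM in mutants, against 97.5 ± 1.78 TPM in wt. Siglecf, at this level, was above 91.9% of the tested genes. Siglec1 averaged 1.16 ± 0.148 TPM in mutants, against 0.486 ± 0.315 TPM in wt, with 11.8% of the tested genes below it. The order depends on the length assigned to a gene, because the deposited length pools all exons of all transcripts. For Cd300lf it is 5149 bases, against 1864 bases in the principal transcript Cd300lf-201. With the lengths of principal transcripts Cd300lf came first, at 769 RPKM (CPM divided by length in kilobases, mean of 6 libraries), ahead of Cd300ld at 553 RPKM, and Cd33 took rank 4.

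**Figure D4:**
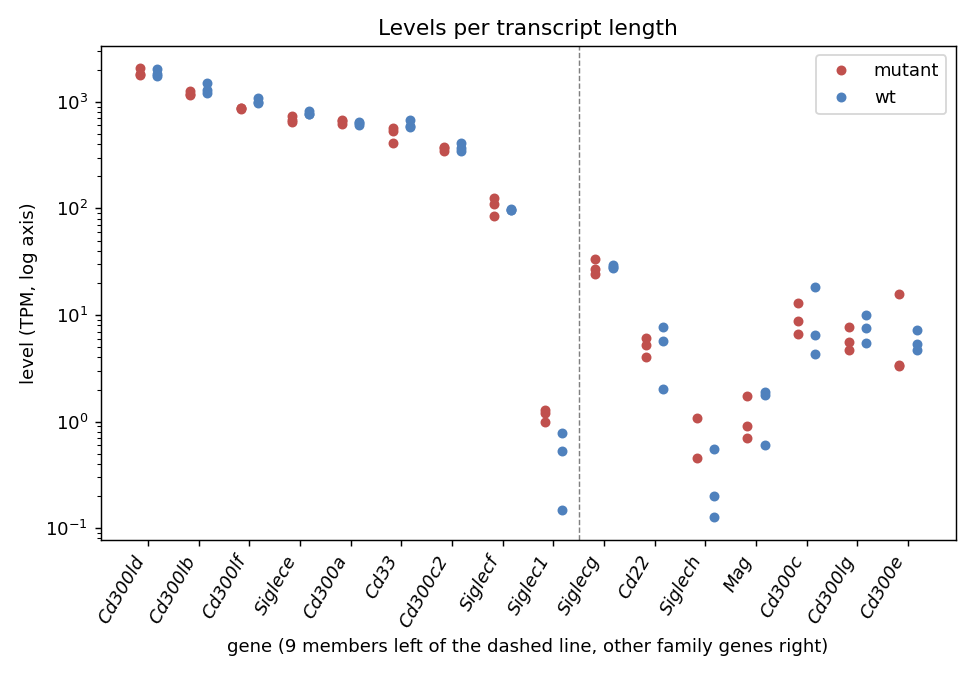
Level per length (TPM, log axis) of the 9 members, left of the dashed line in order of their mean, and of 7 other genes of the families, right of it, with 1 point per mutant or wt library. The mutant library in which Siglech had 0 counts is not drawn. Members other than Siglec1 lie above 80 TPM, and Siglecg, at a mean of 28.2 TPM, is the highest of the other genes.

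Summed over the 5 CD300 members, the level was 4825 to 5097 TPM in mutants, against 4949 to 5551 TPM in wt. With the deposited lengths, the inhibitory genes Cd300a and Cd300lf took 30.2% to 30.9% of that sum in mutants and 29.5% to 33.3% in wt, so their share overlapped between the groups. The size of this share depends on the length given to Cd300lf. It stood at 278 RPKM with the deposited length and at 769 RPKM with that of its principal transcript, which would give the inhibitory genes a larger share. The 4 Siglec members summed to 1181 to 1377 TPM in mutants, against 1444 to 1596 TPM in wt, most of it from Siglece and Cd33.

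The members made up 99.4% to 99.6% of the TPM of all 12 CD300 genes and 97.2% to 97.9% of that of all 9 Siglec genes. Among the other Siglec genes, Siglecg, an inhibitory Siglec known from B cells, stood at 39.7 ± 6.58 CPM in mutants, against 40.2 ± 1.27 CPM in wt (± SD over 3 libraries per group). The B cell Siglec gene Cd22 was at 7.54 ± 1.52 CPM in mutants, against 7.63 ± 4.21 CPM in wt, while 7 B and plasma cell markers summed to 47.3 to 61.2 CPM in mutants, against 31.2 to 54.3 CPM in wt. Mag, the Siglec of myelin, was at 1.32 ± 0.630 CPM in mutants, against 1.69 ± 0.840 CPM in wt, Siglech of plasmacytoid dendritic cells was at 0.508 ± 0.526 CPM in mutants, against 0.294 ± 0.234 CPM in wt, and Siglec15 had 0 counts. Of the remaining CD300 genes, Cd300c, Cd300e and Cd300lg ran from 1.35 to 9.40 CPM over the 6 libraries, Cd300ld2 and Cd300ld3 stood at or below 0.277 CPM, and Cd300ld4 and Cd300ld5 had 0 counts. None of the 7 genes tested here passed in edgeR, DESeq2 or limma-voom, and 0 had an unadjusted p under 0.05.

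Most members share some sequence with other genes, among them relatives on chromosome 11, which limits how reads can be assigned. Of the distinct 50-base words in the transcripts of Cd300c2, 7.16% also occur in Cd300a, which is known to have a closely similar extracellular domain. The shared part was 3.89% for Cd300ld, mostly with Cd300lf, 3.45% for Cd300a, 2.44% for Cd300lf, 1.32% for Siglec1 and under 1% for Cd33 and Siglecf. Siglece and Cd300lb shared 0 words with any other gene. Where the loci overlap a gene on the other strand, that gene was low: Gm11699 over Cd300lb at 1.05% and Rab37 over Cd300lf at 0.945% of the member's mean CPM.

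Most genes of the molecules through which these receptors signal overlapped between the groups. Of 14 tested genes of the phosphatases, adaptors and kinases, 0 passed the adjusted threshold in edgeR, DESeq2 or limma-voom. By edgeR 2 were lower at an unadjusted p under 0.05, beside 3.22% of all tested genes. Those were Syk, the kinase recruited by activating adaptors, at 806 ± 53.9 CPM in mutants, against 980 ± 70.5 CPM in wt (± SD over 3 libraries per group; adjusted p of 0.551), and the PI3-kinase subunit Pik3r1, at 78.1 ± 9.85 CPM in mutants, against 99.4 ± 4.07 CPM in wt (adjusted p of 0.595). Ptpn6, the gene of SHP-1, was at 1184 ± 116 CPM in mutants, against 1253 ± 103 CPM in wt, and Ptpn11, the gene of SHP-2, at 38.2 ± 3.34 CPM in mutants, against 35.2 ± 4.24 CPM in wt. Tyrobp, the gene of DAP12, named here after its values were seen because 3 members pair with it, was at 802 ± 231 CPM in mutants, with mutant replicate 2 the highest at 1069 CPM, and 870.3 ± 90.2 CPM in wt. The Fc receptor gamma chain gene Fcer1g was at 282 ± 73.6 CPM in mutants, against 312 ± 31.5 CPM in wt, and Hcst, which encodes the adaptor DAP10, at 10.9 ± 3.22 CPM in mutants, against 15.4 ± 2.21 CPM in wt. Tyrobp, Fcer1g and Hcst are under 1000 bases long, and such genes took 1.13% to 1.63% of the counts in mutants, highest in mutant replicate 2, and 1.28% to 1.49% in wt. The part of gene length in the values of these adaptor genes was not tested.

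The enzymes that make and remove sialic acid, the ligand of Siglecs, were measured in the same cells. Of 27 tested genes for synthesis, transfer, removal and sulfation, 0 passed in edgeR, DESeq2 or limma-voom. By edgeR 2 were higher at an unadjusted p under 0.05, beside 3.51% of all tested genes. The sialyltransferase gene St3gal6, whose enzyme caps galactose with sialic acid, was at 351 ± 17.5 CPM in mutants, against 276 ± 35.8 CPM in wt (± SD over 3 libraries per group), with a log2 fold change of 0.35 ± 0.11 (SE; adjusted p 0.533, edgeR). The sialic acid acetylesterase gene Siae was low, at 6.74 ± 0.936 CPM in mutants, against 1.56 ± 1.14 CPM in wt, with a log2 fold change of 2.11 ± 0.61 (SE; adjusted p 0.464, edgeR). Among the 14 tested sialyltransferases 10 had a log2 fold change above 0, where 49.3% of all tested genes lay below 0. Their median was 0.14, beside 0.0054 over all tested genes. St3gal5, the synthase of ganglioside GM3, was at 118 ± 5.72 CPM in mutants, against 102 ± 13.3 CPM in wt. Cmah, which converts the sialic acid Neu5Ac to Neu5Gc, was at 30.8 ± 10.6 CPM in mutants, against 21.5 ± 2.17 CPM in wt. The CMP-sialic acid transporter gene Slc35a1 was at 8.17 ± 2.82 CPM in mutants, against 11.2 ± 1.10 CPM in wt. Neu3, a sialidase, and the sulfotransferases Chst1 and Chst2 stayed under 8 CPM in every library.

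Other paired receptors of myeloid cells were measured as well. Of 14 tested genes listed as inhibitory receptors 0 passed in edgeR, DESeq2 or limma-voom. By edgeR 1 was higher at an unadjusted p under 0.05, beside 3.51% of all tested genes. That was Milr1 (Allergin-1), at 37.2 ± 4.36 CPM in mutants, against 27.9 ± 4.15 CPM in wt (± SD over 3 libraries per group; adjusted p of 0.667). Pirb, an inhibitory receptor for class I molecules, was at 1414 ± 46.9 CPM in mutants, against 1583 ± 60.1 CPM in wt (adjusted p of 0.769, edgeR). Of 14 tested genes listed as activating receptors 0 passed with any of the 3 tools. By edgeR 1 was lower at an unadjusted p under 0.05, beside 3.22% of all tested genes. That was Fcgr3, a low-affinity IgG receptor that signals through the gamma chain, at 1043 ± 69.9 CPM in mutants, against 1251 ± 62.3 CPM in wt (adjusted p of 0.551, edgeR). Tarm1, another gamma chain partner, was at 167 ± 26.6 CPM in mutants, against 211 ± 36 CPM in wt.

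The genes whose profile over the 6 libraries was nearest to that of Cd300lf, the member with the smallest p, were Ggt5, Map1lc3b and Glyr1, at root mean square distances of 0.012, 0.025 and 0.029 on the centred log2 CPM scale. For Cd300ld, the member with the highest TPM, they were Ubap2l, Sec24c and Faap100, at 0.029, 0.034 and 0.036. The search ran over 8332 genes that averaged 5 CPM or more, and a near profile over 6 libraries is a description only.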

How the data were processed

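The authors deposited 1 table of raw whole-number read counts per gene with a summed exon length in bases. Alignment and counting used STAR and featureCounts on GRCm38, per the submitters' processing notes, which leave versions, the annotation release and the strand option unstated. Per the labels' protocols, cDNA was made by SMART-Seq v2 (no strand information, no molecular identifiers), so counts include PCR copies. Symbols came from GENCODE M21 (55094 identifiers exact, 300 without version, 93 without symbol).

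Genes were kept by filterByExpr (minimum count 10), scaled by TMM to CPM and tested, unpaired, with the quasi-likelihood test of edgeR (version 4.0.16 in R 4.3.3), with Benjamini-Hochberg adjustment over all tested genes at 0.05. Standard errors are the log2 fold change over the square root of F. The test was tried on simulated counts. Among genes of at least 10 CPM it recovered 40.7% of 1.5-fold changes (27 genes) and 75% of 2-fold changes (20 genes). Over genes of any level, with 50 changed at each size, it recovered 22% of 1.5-fold and 32% of 2-fold changes. For 4-fold and 8-fold changes it recovered 60% and 76%. It also called 15 of 15574 unchanged genes. Changes smaller than 1.5-fold were not simulated. Alternatives were DESeq2 (1.42.0), limma-voom (limma 3.58.1), other scalings and filters, and leaving out each library. The length of the principal transcript as an alternative was chosen after seeing the data.

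The members and gene lists were chosen with earlier results of these data known. Named are the 9 members, the other family genes and the called or 2 lowest-p genes of each list (a list of 8 kinases, for example). The 3 nearest profiles of a pair of members are named too. The plan was to name the first 4 markers of each cell type list. Only some of these are named, and some lists are given as sums and counts or not at all. Tyrosine motifs were found by translating GENCODE transcripts. The membrane span was taken as the most hydrophobic window of 19 codons. Pira1, Pira6 and Pira7 were not matched and are not analysed here.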

Additional observations from a re-analysis of the deposited data

How the results depend on the processing

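No member was called under any of the 13 alternatives, although Siglec1 could not be fitted among genes of at least 10 CPM, and Siglece, Cd33, Siglec1, Cd300a, Cd300lf and Cd300lb kept their sign in all that gave a value. The unadjusted p stayed under 0.05 in 12 of 13 alternatives for Cd33, 10 for Cd300lf and 5 for Siglece. The sign of Siglecf turned without mutant replicate 2 (log2 fold change -0.036, highest 0.31 without mutant replicate 3), that of Cd300c2 without mutant replicate 3 (0.0011) and without wt replicate 2 (0.016; lowest -0.12), and that of Cd300ld without mutant replicate 3 (-0.034), wt replicate 1 (-0.0088) or wt replicate 2 (-0.031; highest 0.063), and for all 3 genes the 95% interval from 6 libraries includes 0. Over all genes, 1 was higher and 0 lower by edgeR, against 81 and 74 by DESeq2's Wald test, 41 and 29 with no filter on low counts and 14 and 5 among genes of at least 10 CPM, where fewer genes were tested; leaving out 1 library gave 0 to 1 higher (0 without mutant replicate 1, wt replicate 1 or wt replicate 3) and 0 to 1 lower (1 without mutant replicate 2). The cause of the other differences was not tested. With the length of principal transcripts, the rank by level became 1 for Cd300lf, 2 for Cd300ld, 3 for Cd300lb, 4 for Cd33, 5 for Siglece and 6 for Cd300a, and with RPKM or 1 library left out no rank moved. The pathway lists held 0 called genes by edgeR, DESeq2 and limma-voom. No paired analysis was possible because the labels used here do not say which mutant and wt libraries belong together, and replicate numbers only follow accession order. Siglec1 had 10 to 89 counts per library, and how its values depend on depth was not tested.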
